A study of Saccharomyces cerevisiae with 7 samples.

Results

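The genes nearest the ends of the yeast chromosomes were examined in cells that lack Arp6 or Swr1. On each of the 32 chromosome arms, the 10 measured genes with the highest 3-digit number in their systematic name were taken, since these numbers run outward from the centromere. Symbols beginning with AAD, HXT, PHO, TIR, DAN, THI, ADH, FIT, ARN, RPL or RPS, and MSC1, were left out of the choice. This gave 320 end genes of 5371 genes with values. The rule itself uses no expression value, but it was set with earlier results of these data known. Rank 1 is the outermost gene of an arm and rank 10 the innermost. In the gene order of the reference annotation 0 to 3 further genes lay beyond a rank 1 gene, and 7 to 17 (median 12) beyond a rank 10 gene. Of the 320 genes, 319 could be tested, 297 had a value on all 7 arrays, and 82 carry no name other than their systematic one.

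Chromosome ends of budding yeast are known for silent chromatin, in which the Sir proteins bind deacetylated nucleosomes and keep nearby genes low. The region also holds gene families that occur in many copies, such as the PAU and COS genes, the helicase genes of the Y′ elements, and genes for the use of rarer sugars and metals. SWR-C is the remodelling complex that places the histone variant Htz1 into nucleosomes, and Htz1 is known to limit the spread of silent chromatin from the ends. The ATPase of the complex is Swr1, while Arp6 belongs to the actin-related proteins it contains.

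Each array compared RNA of a deletion strain, in the Cy5 channel, with RNA of the wild type, in the Cy3 channel, all in the W303 background and without a dye swap. There were 4 arrays for the arp6 deletion (arp6Δ) and 3 for the swr1 deletion (swr1Δ). The labels give growth in rich glucose medium (YPD) at 25 °C to an optical density of 1, while the study's methods differ in temperature and RNA reagent and state at least 3 independent cultures per strain. All values are log2 ratios of mutant over wild type, so 1 is a 2-fold higher level, and a fixed dye effect cannot be told apart from an effect of the deletion in the ratio of 1 mutant, although it drops out of the difference between the mutants. A ratio does not tell how strongly a gene is expressed, and in bulk RNA fewer cells that express a gene and less RNA per cell cannot be told apart.

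The arrays differed in quality in ways that touch every value below. The arp6Δ arrays agreed in pairs, with Pearson's r across genes of 0.66 for replicates 1 and 2, 0.83 for replicates 3 and 4, and 0.26 to 0.36 across the pairs. In swr1Δ replicates 2 and 3 had an r of 0.81, and replicate 1 stood apart with 0.44 and 0.49. Over the end genes alone, swr1Δ replicate 1 correlated better with arp6Δ replicates 3 and 4 (0.53 and 0.45) than with swr1Δ replicates 2 and 3 (0.41 and 0.23), and this touches every comparison of the mutants. A gene's typical SD was 0.52 in arp6Δ and 0.20 in swr1Δ. On replicates 1 and 2 of arp6Δ the rows of 3 stretches of the table, between YDR536W and YGL029W, between YHR199C and YIL114C, and between YIL115C and YJL008C, matched replicates 3 and 4 better after a move of 1, 1 and 2 rows. The correlation was 0.09, 0.03 and −0.14 as deposited and 0.30, 0.43 and 0.24 after the move, against 0.41 in the rest of the table, so these rows are called displaced here. This touches 77 end genes on arms IVR, VL, VR, VIL, VIR, VIIIR, IXL and IXR, and for them replicates 3 and 4 are the values to read. The other 243 end genes lie outside these stretches. Short displaced stretches were not kept and larger moves were not searched for. The moves were chosen as the best match to replicates 3 and 4, so a better correlation after them was built into the choice. The deleted genes read below wild type on their own arrays. ARP6 stood at −1.09 ± 0.31 (SD, n = 4) on the arp6Δ arrays and SWR1 at −0.82 ± 0.34 (n = 3) on the swr1Δ arrays. By array SWR1 read −0.42, −1.02 and −1.01, so that swr1Δ replicate 1 showed its loss least.

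The first comparison asked how far the end genes as a group depart from wild type when Arp6 is absent. The median log2 ratio of the end genes was −0.33, −0.17, −0.41 and −0.42 on the 4 arp6Δ arrays, a mean of −0.33 ± 0.11, whereas the mean of the medians of all 5879 features tested was −0.00 ± 0.01. All 4 arrays were thus on the same side. The shift was as large in the 243 genes outside the displaced stretches (−0.35 ± 0.09). The medians farther in lay nearer to 0: genes of rank 11 to 20 had medians of 0.09, 0.04, −0.11 and −0.10, and genes of rank 21 to 30 had −0.10, 0.05, −0.01 and −0.04, and in both bands the arrays lay on both sides of 0. Among the 297 end genes measured everywhere, 110 were below 0 on all 4 arrays, which is 37% against 19.9% of all features, and 16 were above 0 on all 4, which is 5.39% against 20.7%.

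Of 319 end genes tested in arp6Δ, 19 fell and 3 rose in limma at an adjusted p of 0.05, with adjusted p-values between 0.0319 and 0.0492. In either direction this is 6.9%, against 5.36% of all features. The share lower was 5.96%, against 3.27% of all features, and the share higher 0.94%, against 2.09%. Among the lower calls 3, YFL067W, HYR1 and KGD4, lie in displaced stretches, and none of these passed with the displaced values removed. With the rows moved back HYR1 and KGD4 passed (adjusted p = 0.0261 and 0.0452) and YFL067W did not (adjusted p = 0.055). Calls were nearly as frequent in the next genes inward, where 16 of 319 genes of ranks 11 to 20 were lower (5.02%) and 4 higher. The calls need all 4 arrays: without replicate 1 there were 3, all lower, and without replicate 2, 3 or 4 there were 0. In the fits with 0 calls, the limma p before adjustment was under 0.05 for 89 to 96 end genes. The matching share of all features is not given here, so this range says nothing particular to the end genes. Replicates 3 and 4, which agree best, gave 140 lower and 29 higher when fitted alone, which is 44% and 9.12% of 318, against 22.9% and 20.5% of all features. That fit rests on 1 pair of arrays, and p-values are too small if the arrays of a pair share errors.

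In swr1Δ the end genes lay on the other side, by less. Their medians were −0.01, 0.14 and 0.17 on the 3 arrays, a mean of 0.10 ± 0.10, and replicate 1 showed no shift. Every arp6Δ array lay below every swr1Δ array. Of 319 end genes tested, 40 rose and 25 fell, which is 12.5% and 7.84%, against 11.2% and 10.9% of all features, so that the share higher was near the background and the share lower below it. Without replicate 1, 2 or 3 the count of 65 became 173, 12 or 24. Over all 7 arrays, where the wider arp6Δ spread is pooled in, it was 0. Before adjustment, the limma p of that fit was under 0.05 for 34 of the 319 end genes and for 790 of all 5879 features. The share in the end genes was thus not above the background.

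The mutants were then set against each other directly, in which a fixed dye effect drops out. Of 319 end genes, 23 were lower in arp6Δ than in swr1Δ and 3 were higher, which is 7.21% and 0.94%, against 3.9% and 3.13% of all features. Together these are 8.15%, against 7.03%, and in ranks 11 to 20 the share was 8.46%. Leaving out 1 array moved the count of 26. It became 53, 39, 13 or 0 without arp6Δ replicate 1, 2, 3 or 4. Without any 1 of the swr1Δ arrays it was 0. Where the count was 0, the limma p before adjustment was under 0.05 for 60 to 103 end genes. For these fits too the share of all features is not given here, so the range says nothing particular to the end genes. Of the 26 genes 6 lie in displaced stretches, and with the displaced values removed YEL068C, YEL076C and YFL065C did not pass (adjusted p = 0.0636, 0.0786 and 0.089). With the rows moved back YFL065C passed (adjusted p = 0.044), and YEL068C and YEL076C did not (adjusted p = 0.0731 and 0.0938). By value alone, 88 of the 297 genes measured everywhere had all arp6Δ arrays below all swr1Δ arrays, which is 29.6% against 15.3% of all features, and 20 had the reverse, which is 6.73% against 16.8%. Outside the displaced stretches these shares were 29.7% and 6.99%. The pattern of all 4 arp6Δ arrays below 0 and all 3 swr1Δ arrays above 0 was met by 31 end genes, 10.4% against 5.27%, and the opposite pattern by 5, 1.68% against 6.24%.

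**Figure D1:**
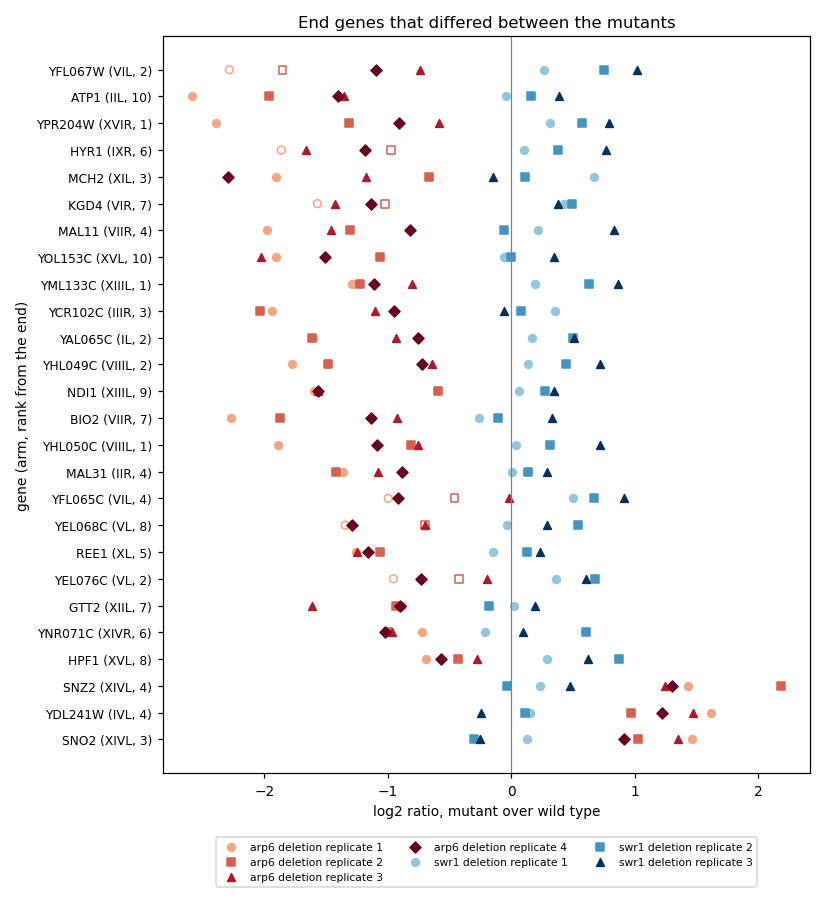
Log2 ratio of mutant over wild type (x axis) on each array for the 26 end genes whose level differed between arp6Δ and swr1Δ, with arm and rank in brackets (y axis). Red symbols are the 4 arp6Δ arrays, blue symbols the 3 swr1Δ arrays, and open symbols are displaced values of arp6Δ replicates 1 and 2. Of these genes 23 have the arp6Δ arrays to the left of the swr1Δ arrays and the 3 at the bottom, SNZ2, YDL241W and SNO2, have them to the right.

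Distance from the end was compared next, by rank. In swr1Δ the rank 1 genes had medians of 0.10, 0.39 and 0.35 over their 32 arms, and the rank 2 genes 0.05, 0.38 and 0.48. From rank 3 inward the mean over arrays stayed between −0.04 and 0.14, and at rank 10 the 3 arrays gave −0.03, −0.04 and −0.06. Ranks 1 to 5 exceeded ranks 6 to 10 by 0.06, 0.19 and 0.15, a mean of 0.13 ± 0.07, with all 3 arrays on the same side.

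The slope of swr1Δ was not seen in named single genes, while in arp6Δ a smaller difference remained, below 0 on every array. When PAU, COS and YRF1 genes and those with only a systematic name were set aside, a division made after the values were seen, the remaining 209 end genes showed a difference between the outer and inner ranks of −0.06, 0.05 and 0.00 in swr1Δ, and of −0.10, −0.01, −0.10 and −0.09 in arp6Δ. In arp6Δ the medians were below 0 at every rank on average, from −0.49 ± 0.07 at rank 2 and −0.48 ± 0.12 at rank 1 to −0.18 ± 0.11 at rank 9 and −0.19 ± 0.05 at rank 10, but not in steady steps, since rank 4 stood at −0.18 ± 0.20. Outer minus inner ranks gave −0.22, −0.07, −0.09 and −0.18, a mean of −0.14 ± 0.07. Outside the displaced stretches this difference was −0.12 ± 0.12, and replicate 2 then stood at 0.02, so that the arrays no longer lay on 1 side.

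**Figure D2:**
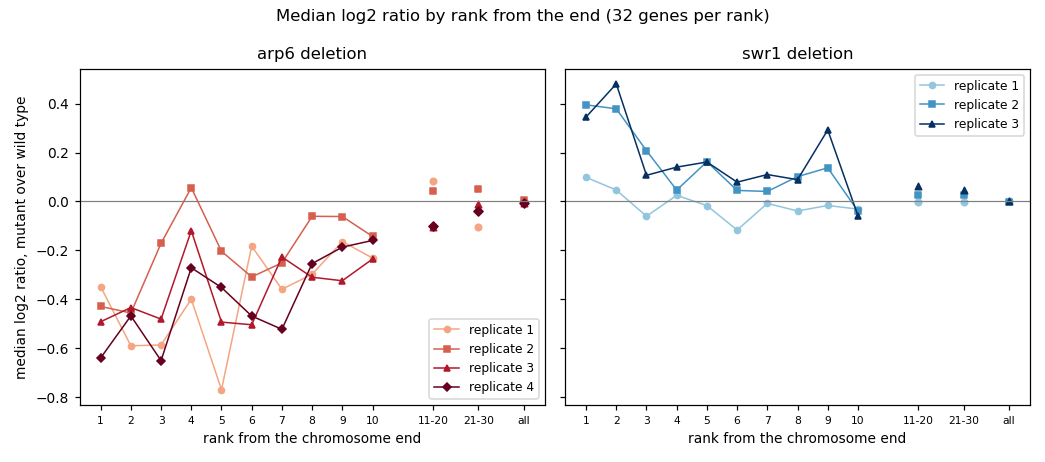
Median log2 ratio (y axis) of the 32 genes at each rank from the chromosome end (x axis, 1 is outermost), 1 line per array, followed by the medians of ranks 11 to 20, ranks 21 to 30 and all features. Displaced values of arp6Δ replicates 1 and 2 are included and not marked. The arp6Δ lines lie below 0 at nearly every rank and the bands farther in lie near 0. In swr1Δ replicates 2 and 3 are highest at ranks 1 and 2 and replicate 1 lies near 0 throughout.

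Across the 32 arms, the mean of the 4 arp6Δ medians was below 0 on 27, and on 15 arms all 4 arrays were below 0, while no arm had all 4 above. On replicates 3 and 4 both arrays were below 0 on 28 arms and both above on 1, IR. As deposited, the lowest arms were IL at −1.23 ± 0.81, VIL at −0.87 ± 0.51 and XIIL at −0.86 ± 0.53, and the highest XR at 0.16 ± 0.47, XIIIL at 0.04 ± 0.20 and XIVL at 0.03 ± 0.35. VIL lies wholly in a displaced stretch and is not among the 3 lowest otherwise, at −0.57 with its rows moved back and −0.59 on replicates 3 and 4. On those replicates IXR, VL and IL were lowest, at −0.94, −0.88 and −0.85. The step from one arm to the next in this order was 0.36 between IL and VIL and at most 0.20 elsewhere, and no step exceeded the larger SD of the 2 arms it separates. In swr1Δ 26 arms had a mean above 0, 7 of them on all 3 arrays, and 4 arms were below 0 on all 3. On 12 arms every arp6Δ median lay below every swr1Δ median.

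**Figure D3:**
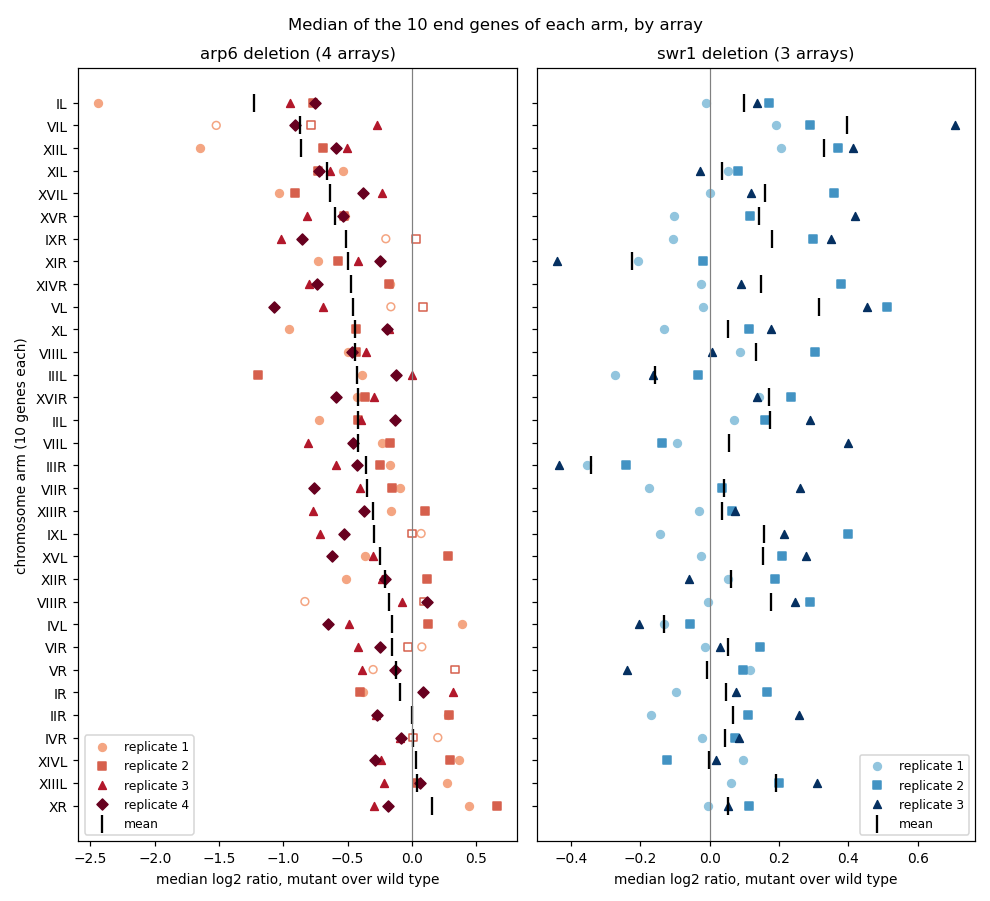
Median log2 ratio (x axis) of the 10 end genes of each chromosome arm (y axis, ordered by the arp6Δ mean) on each array, with arp6Δ on the left and swr1Δ on the right on its own scale. Black bars are means over arrays, and open symbols are arms with displaced rows on arp6Δ replicates 1 and 2. Replicate 1 lies far below the others on IL and XIIL, and IIIR is the lowest arm in swr1Δ.

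Arm IL was lowest on arp6Δ replicate 1, and 1 of its genes fell. Its medians were −2.44, −0.77, −0.95 and −0.76 in arp6Δ. BDH2 (YAL061W), a butanediol dehydrogenase gene, read −6.11, −3.16, −1.08 and −0.79, and its neighbour BDH1 (YAL060W) read −0.20, 0.54, −1.14 and −1.33. GDH3 (YAL062W), a glutamate dehydrogenase gene, read −5.88, −1.38, −0.98 and −1.68. None of the 3 passed (adjusted p = 0.096, 0.35 and 0.105), and replicate 1 was far below the others for BDH2 and GDH3. YAL065C at rank 2, which the study annotates as a likely pseudogene resembling the flocculin genes, was the only gene of the arm that fell, with −1.60, −1.62, −0.94 and −0.75 (adjusted p = 0.0438). On swr1Δ it read 0.17, 0.50 and 0.51, and the difference of −1.62 ± 0.29 (SE) passed (adjusted p = 0.028). ECM1 (YAL059W), which acts in the export of the large ribosomal subunit, went against the rest of the arm at 0.92, −0.12, 1.51 and 1.79 (adjusted p = 0.113).

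Arms VIL and XIIL were low at their outermost unnamed genes and mixed farther in. On XIIL, YLL067C at rank 1 read −2.30, −1.27, −0.15 and −1.06 in arp6Δ and −0.11, 0.36 and 0.69 in swr1Δ. YLL066C at rank 2 read −2.21, −1.24, −0.59 and −0.50 in arp6Δ and 0.03, 0.38 and 0.60 in swr1Δ. Neither passed for the difference (adjusted p = 0.0848 and 0.0714). GTT2 (YLL060C), a glutathione transferase gene at rank 7, fell in arp6Δ, with −0.88, −0.93, −1.62 and −0.90 (adjusted p = 0.0477). The sulphur compound genes beside it split by pair of arrays: MMP1 (YLL061W), which carries S-methylmethionine into the cell, read −2.97 and −0.67 on replicates 1 and 2 and 2.18 and 1.33 on replicates 3 and 4, and in swr1Δ it rose, with 0.54, 0.77 and 0.41 (adjusted p = 0.0266).

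On VIL the values of arp6Δ replicates 1 and 2 are displaced, and replicates 3 and 4 gave arm medians of −0.27 and −0.91. YFL068W at rank 1 read −0.30 and −1.05 on these 2 arrays and −0.09, 0.36 and 0.69 in swr1Δ, within 0.16 of YLL067C on each of the 5 arrays. YFL067W at rank 2 read −0.74 and −1.10, and in swr1Δ it rose, with 0.26, 0.75 and 1.02 (adjusted p = 0.0326). YFL065C, which the study's annotation likens to other proteins encoded near chromosome ends, read −0.02 and −0.92 in arp6Δ and rose in swr1Δ, with 0.50, 0.67 and 0.91 (adjusted p = 0.0225). With the displaced values removed the difference between the mutants passed for YFL067W (adjusted p = 0.0416) and not for YFL065C (adjusted p = 0.089). With the rows moved back it passed for both (adjusted p = 0.0394 and 0.044).

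The 3 highest arms held single genes that fell or rose beside many that did not pass. On XIVL the vitamin B6 genes rose: SNZ2 (YNL333W), a pyridoxine synthesis gene, read 1.430, 2.184, 1.247 and 1.299 in arp6Δ, a mean of 1.54 ± 0.44 (adjusted p = 0.0319). Its partner SNO2 (YNL334C) read 1.46, 1.02, 1.36 and 0.91, a mean of 1.19 ± 0.26 (adjusted p = 0.0378). Both stayed near wild type in swr1Δ, with 0.23, −0.03 and 0.48 for SNZ2 and 0.13, −0.30 and −0.25 for SNO2, and the groups did not overlap. Of the same arm EGT2 (YNL327W), a wall protein of cell separation, rose in swr1Δ, with 0.77, 1.17 and 1.17 (adjusted p = 0.0214), and lay on both sides of 0 in arp6Δ. On XIIIL the outermost gene YML133C and NDI1 (YML120C), the NADH dehydrogenase of the inner mitochondrial membrane, fell in arp6Δ, while PGA3 (YML125C) stood at 2.03, 1.59, 0.66 and 0.35 (adjusted p = 0.0827). On XR no gene was called in arp6Δ, and BAT2 (YJR148W), an aminotransferase gene of branched-chain amino acids, read 1.27 and 1.82 on replicates 1 and 2 and −0.21 and −0.27 on replicates 3 and 4.

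Among the genes with a standard name that fell in arp6Δ, ATP1, BIO2 and MCH2 had the lowest means. ATP1 (YBL099W), a subunit of ATP synthase, read −2.58, −1.96, −1.36 and −1.40, a mean of −1.82 ± 0.58 (adjusted p = 0.0319). BIO2 (YGR286C), biotin synthase, read −2.27, −1.87, −0.92 and −1.14 (mean −1.55 ± 0.63, adjusted p = 0.0388). MCH2 (YKL221W), a relative of monocarboxylate permeases, read −1.91, −0.66, −1.18 and −2.30 (adjusted p = 0.0472). The swr1Δ values of these 3 genes lay between −0.26 and 0.67, above all their arp6Δ values, and each differed between the mutants, ATP1 by −1.99 ± 0.34 (SE, adjusted p = 0.0264).

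YOL153C, for which no function is given here, read −1.90, −1.06, −2.03 and −1.51 (mean −1.63 ± 0.43, adjusted p = 0.0319). YCR102C, annotated by the study as resembling alcohol dehydrogenases, read −1.94, −2.03, −1.10 and −0.95 (adjusted p = 0.0378). REE1 (YJL217W), a regulator of enolase, was the most even, with −1.26, −1.06, −1.25 and −1.16, a mean of −1.18 ± 0.09 (adjusted p = 0.034). In swr1Δ all 3 lay between −0.15 and 0.35, and all were called for the difference. ADY3 (YDL239C), a gene of spore formation, the ferric reductase gene FRE2 (YKL220C), NDI1 and YNR071C also fell, with means between −1.38 and −0.93. HYR1 (YIR037W), a peroxidase gene, and KGD4 (YFR049W), a subunit of ketoglutarate dehydrogenase, were called too but lie in displaced stretches. On replicates 3 and 4 HYR1 read −1.66 and −1.19 and KGD4 −1.43 and −1.14. Without the displaced values neither passed in arp6Δ (adjusted p = 0.0725 and 0.0775), while both passed for the difference (adjusted p = 0.0311 and 0.0236). With the rows moved back both passed in arp6Δ (adjusted p = 0.0261 and 0.0452).

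Besides SNZ2 and SNO2, YDL241W at rank 4 of IVL rose in arp6Δ, with 1.62, 0.97, 1.47 and 1.22 (mean 1.32 ± 0.29, adjusted p = 0.0335), against 0.15, 0.11 and −0.25 in swr1Δ. Of the 22 genes called in arp6Δ, 4 were also called in swr1Δ, which is 4 of its 65. This is 18.2% of the 22, against 22.2% of all features called in swr1Δ. The mutants have no arrays in common, although it is not stated whether the wild-type RNA was the same. MNT2 (YGL257C), a mannosyltransferase gene, fell in both, with −0.72, −1.52, −1.74 and −1.36 in arp6Δ and −0.35, −0.76 and −0.62 in swr1Δ, and the mutants did not differ past the threshold (−0.76 ± 0.29, adjusted p = 0.132). YML133C, YFL067W and KGD4 were lower in arp6Δ and higher in swr1Δ. With the displaced values removed YFL067W and KGD4 did not pass in arp6Δ (adjusted p = 0.135 and 0.0775 in limma). With the rows moved back KGD4 passed (adjusted p = 0.0452) and YFL067W did not (adjusted p = 0.055). For YML133C, the rank 1 gene of XIIIL and the only one of these outside the displaced stretches, the values were −1.29, −1.23, −0.80 and −1.11 against 0.19, 0.63 and 0.87, a difference of −1.67 ± 0.26 (SE, adjusted p = 0.0215).

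Genes with only a systematic name were mostly below 0 in arp6Δ and above 0 in swr1Δ. Of the 82, 64 had a mean below 0 in arp6Δ, where 6 fell and 1 rose, and 57 a mean above 0 in swr1Δ, where 13 rose and 2 fell. Of all features 3.27% fell and 2.09% rose in arp6Δ, and 11.2% rose and 10.9% fell in swr1Δ, so that the count that rose in swr1Δ is near the background. Their medians were −0.75, −0.57, −0.46 and −0.54 in arp6Δ and 0.02, 0.36 and 0.29 in swr1Δ. Of the 82 genes 27 lie in displaced stretches. The arp6Δ means and the medians of arp6Δ replicates 1 and 2 thus include displaced values. A cut to the 31 at ranks 1 and 2 was made after the values were seen, and 11 of the 31 lie in displaced stretches. Their medians were −1.29, −0.99, −0.58 and −0.73 in arp6Δ and 0.15, 0.40 and 0.52 in swr1Δ. By test 7 of the 31, 2 in displaced stretches, were lower in arp6Δ than in swr1Δ. YPR204W at rank 1 of XVIR read −2.39, −1.32, −0.59 and −0.91 against 0.31, 0.58 and 0.79 (difference −1.86 ± 0.42, SE, adjusted p = 0.0412). YHL050C and YHL049C, the outermost genes of VIIIL, differed by −1.50 ± 0.34 and −1.59 ± 0.34 (adjusted p = 0.0412 and 0.0389). In the 3 genes no arp6Δ array reached the lowest swr1Δ array. Whether spots of these outermost genes share signal with each other or with the Y′ helicase genes was not tested. The 7 may therefore not be separate measurements. YOR387C on XVR had the lowest mean of the group in arp6Δ, −2.90 ± 2.01, from −0.36, −2.24, −4.62 and −4.39, but swr1Δ replicate 1 read −4.86 beside −0.15 and 0.63, and it passed in neither mutant.

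The PAU genes, which encode small mannoproteins of the seripauperin family, lay above wild type in swr1Δ as a family. Of 17 members, all had a mean above 0 in swr1Δ, between 0.37 and 0.83, and 7 rose, which is to be read beside 11.2% of all features called higher. Whether the spots of this family share signal was not tested, so the 17 may not be separate measurements. The family median was 0.19, 0.80 and 0.58 on the 3 arrays, lowest on replicate 1. In arp6Δ 14 of 17 had a mean below 0 and none was called, with family medians of −0.20, 0.28, −0.39 and −0.43. PAU14 (YIL176C) had the highest mean in swr1Δ, with 0.21, 1.47 and 0.81 (adjusted p = 0.0425). PAU20 (YOL161C) read 0.45, 0.86 and 0.90 (adjusted p = 0.0225), and PAU11 (YGL261C) 0.44, 1.00 and 0.82 (adjusted p = 0.0227). PAU12 (YGR294W) was the member highest in arp6Δ, at 1.99, 1.00, 0.02 and −0.10 (adjusted p = 0.25), and the pairs of arrays did not agree on it.

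**Figure D4:**
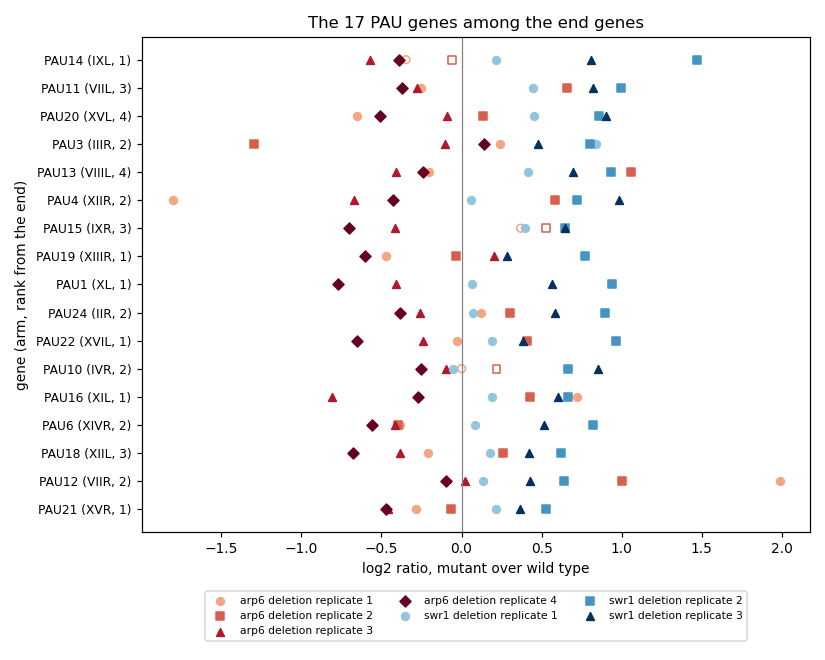
Log2 ratio of mutant over wild type (x axis) on each array for the 17 PAU genes among the end genes, ordered by the swr1Δ mean, with arm and rank in brackets (y axis). Red symbols are arp6Δ arrays, blue symbols swr1Δ arrays, and open symbols displaced values. The symbols of swr1Δ replicates 2 and 3 lie to the right of 0 for every gene, and those of arp6Δ replicates 3 and 4 to the left for nearly all.

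Of the other repeated families the COS genes were not called and the Y′ genes were. The 10 COS genes, which encode membrane proteins of the COS family, had 0 calls in limma in either mutant. At an unadjusted p under 0.05 there were 3 in arp6Δ and 2 in swr1Δ, beside 1730 and 2448 of all 5879 features. The family medians were 0.45, 0.31, −0.54 and −0.66 in arp6Δ and −0.36, −0.01 and 0.10 in swr1Δ. COS8 (YHL048W) and COS7 (YDL248W) had the lowest arp6Δ means, −1.06 ± 0.50 and −0.94 ± 0.35 (adjusted p = 0.0607 and 0.0588), and both were below 0 on all 4 arrays. The Y′ helicase genes YRF1-1 (YDR545W) and YRF1-2 (YER190W) both rose in swr1Δ, with 0.22, 0.66 and 0.85 and with 0.22, 0.75 and 0.88 (adjusted p = 0.0382 and 0.0369). In arp6Δ replicates 3 and 4, which are not displaced, they read −0.42 and −0.96, and −0.71 and −0.97. FLO5 (YHR211W), the flocculin gene, rose in swr1Δ with 0.15, 0.71 and 0.87 (adjusted p = 0.0447).

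Some pairs of related genes gave nearly the same values, and whether their spots share signal was not tested, because probe sequences were not analysed here. The fluoride exporter genes FEX1 (YOR390W) and FEX2 (YPL279C), on different chromosomes, rose in swr1Δ with 0.52, 0.91 and 0.83 and with 0.43, 1.02 and 0.75 (adjusted p = 0.0225 and 0.0227), and differed by a mean of 0.08 over all 7 arrays. SNZ2 and SNZ3, DDI2 and DDI3, YRF1-1 and YRF1-2, and YLL067C and YFL068W differed by 0.13, 0.07, 0.08 and 0.04 on the arrays free of displacement. For neighbouring end genes the median of this difference was 0.73. Of the 9 pairs compared, 4 lay farther apart, with 0.68 for the sorbitol dehydrogenase genes SOR1 and SOR2, 0.51 for HSP33 and SNO4, 0.44 for FDH1 and FDH2 and 0.43 for HSP32 and HSP33. No pair of PAU or COS genes was among those compared. Pairs as close as FEX1 and FEX2 may be 1 measurement rather than separate ones.

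Among genes for the use of sugars, the maltose transporter genes MAL11 and MAL31 fell in arp6Δ. Of 16 members 11 had a mean below 0, 2 fell and none rose, beside 3.27% of all features lower, and the group median was −0.38, −0.42, −0.82 and −0.80. MAL11 (YGR289C) read −1.98, −1.30, −1.46 and −0.82 (mean −1.39 ± 0.48, adjusted p = 0.0378), and MAL31 (YBR298C) −1.36, −1.42, −1.08 and −0.89 (mean −1.19 ± 0.25, adjusted p = 0.0377). MPH2 (YDL247W), a relative of these transporters, read 0.70, 0.91, −0.04 and −0.28 and did not pass (adjusted p = 0.466). In swr1Δ MAL11 and MAL31 read 0.22, −0.06 and 0.83, and 0.01, 0.14 and 0.29, with no overlap, and both differed between the mutants. The isomaltase genes IMA5 (YJL216C) and IMA2 (YOL157C) had lower means, −2.14 ± 2.02 and −1.53 ± 1.01, from values of −4.91 and −3.01 on replicate 1, and did not pass (adjusted p = 0.111 and 0.0686). In swr1Δ the group had 1 higher, the hexokinase gene HXK1 (YFR053C), and 2 lower, SOR1 (YJR159W) and SOR2 (YDL246C).

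**Figure D5:**
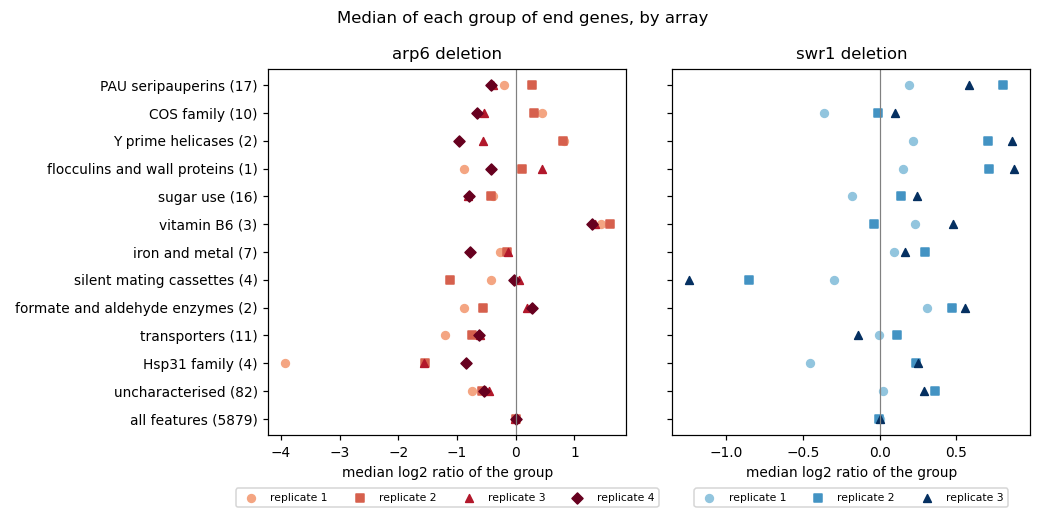
Median log2 ratio (x axis) on each array of the groups of end genes described in the text, with the number of genes in brackets, and of all features tested (y axis). The left panel shows arp6Δ and the right panel swr1Δ, each on its own scale. Displaced values of arp6Δ replicates 1 and 2 are included and not marked. They make up the whole of these 2 arrays for the Y′ helicase genes and FLO5, and 27 of the 82 unnamed genes. The vitamin B6 genes lie above 1 on all 4 arp6Δ arrays, the Hsp31 family at or below −0.85, and the PAU genes above 0 on all 3 swr1Δ arrays.

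Transporter and Hsp31 genes lay below wild type in arp6Δ, with a wide spread between arrays. Of 11 transporter genes 9 had a mean below 0 in arp6Δ, and MCH2 alone was called. JEN1 (YKL217W), the lactate transporter gene, read −7.80, −1.40, −0.62 and −0.75, and SEO1 (YAL067C), a permease gene at rank 1 of IL, −5.04, −1.93, −0.62 and −0.44, so that replicate 1 set both means (adjusted p = 0.196 and 0.14). The 4 genes of the Hsp31 family, HSP31, HSP32, HSP33 and SNO4, which encode chaperone-like proteins, had medians of −3.94, −1.54, −1.56 and −0.85. All 4 were below 0 on all 4 arrays and none passed, with adjusted p-values between 0.0613 and 0.0867. Of 7 iron and metal genes, FRE2 fell in arp6Δ, with −1.70, −1.49, −0.65 and −1.49 (adjusted p = 0.0388), and none was called in swr1Δ.

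The arm with the lowest median in swr1Δ was IIIR, which holds the silent mating cassette HMR. Its medians were −0.36, −0.24 and −0.43 in swr1Δ, below 0 on all 3 arrays, and 5 of its 10 genes fell and 1 rose, where 10.9% of all features fell and 11.2% rose. XIR, IIIL and IVL were also below 0 on all 3 arrays. IIIR was singled out after its values were seen. HMRA1 (YCR097W) and HMRA2 (YCR096C), the genes of the cassette, read −0.40, −0.76 and −0.94, and −0.19, −0.94 and −1.33 (adjusted p = 0.0227 and 0.0386). OCA4 (YCR095C), the innermost of the 10, read −0.607, −0.820 and −1.003 (adjusted p = 0.0221). GIT1 (YCR098C), which takes up glycerophosphoinositol, and EMA35 (YCR100C) fell by less, with means of −0.40 ± 0.09 and −0.43 ± 0.13 (adjusted p = 0.0463 and 0.0423). PAU3 (YCR104W) at rank 2 rose, with 0.84, 0.80 and 0.48 (adjusted p = 0.0225). In arp6Δ GIT1 read 0.60 and 1.07 on replicates 1 and 2 and −4.31 and −3.54 on replicates 3 and 4.

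At the other silent cassette, HML on IIIL, HMLALPHA2 (YCL067C) fell in swr1Δ with −0.41, −1.31 and −1.25 (adjusted p = 0.0227), and HMLALPHA1 (YCL066W) rose, with 1.02 and 0.83 on the 2 arrays that measured it (adjusted p = 0.0225). The cassettes are copies of genes that also lie at the mating type locus, so a spot may report either place. Of the markers of MATa cells, 3 of the 4 measured rose in swr1Δ, where the whole list had medians of 0.30, 0.97 and 0.70. Of 3 MATα markers 1 rose, and 11.2% of all features were called higher. In arp6Δ 0 MATa markers were called and 1 MATα marker, STE3, fell (adjusted p = 0.0418 in limma), beside 3.27% of all features lower. Their part in the cassette values was not tested. In arp6Δ the 4 cassette genes were not called, and only 2 of the 4 arrays measured HMRA1 and HMRA2 each.

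Further end genes were called in swr1Δ. BSD2 (YBR290W), which sorts metal transporters, had the lowest mean of those measured on all arrays and called, −1.26 ± 0.80, from −2.17, −0.69 and −0.92 (adjusted p = 0.0273). KRE28 (YDR532C), a kinetochore gene, read −0.62, −0.93 and −1.34 (adjusted p = 0.0225), and MRC1 (YCL061C), a mediator of the replication checkpoint, −0.48, −0.84 and −0.99 (adjusted p = 0.0225). SIR1 (YKR101W), which helps to establish silencing at HML and HMR and is itself the rank 5 gene of XIR, read −0.41, −0.47 and −0.78 (adjusted p = 0.0293). Among those that rose were the transporter gene OPT1 (YJL212C), with 0.60, 0.93 and 0.94 (adjusted p = 0.0214), and GAB1 (YLR459W), which attaches proteins to their membrane anchor, with 0.55, 0.89 and 1.00 (adjusted p = 0.0225). None of these 6 genes was called in arp6Δ.

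The genes that make and limit silent chromatin were read alongside. Of 25 measured, including SIR1, 0 were called in arp6Δ, where 17 had a mean below 0, and in swr1Δ 8 fell and 1 rose, beside 5.36% of all features called in arp6Δ and 10.9% lower and 11.2% higher in swr1Δ. The list medians were −0.43, −0.21, −0.02 and −0.19 in arp6Δ and −0.09, −0.22 and −0.45 in swr1Δ. SAS4 (YDR181C), a subunit of a histone acetyltransferase of silencing, fell most in swr1Δ, with −0.56, −1.04 and −1.45 (adjusted p = 0.0225). YKU70 (YMR284W) and YKU80 (YMR106C), which bind telomere ends as a dimer, fell in swr1Δ with means of −0.67 ± 0.15 and −0.44 ± 0.13. In arp6Δ they had means of −0.96 ± 0.37 and −1.15 ± 0.90 (adjusted p = 0.0587 and 0.1), below 0 on all 4 arrays. SIR2, SIR3 and SIR4 passed in neither mutant. HTZ1 (YOL012C) stood at −0.41 ± 0.15 in arp6Δ and 0.36 ± 0.17 in swr1Δ and passed in neither. The part of these genes in the levels of the end genes was not tested.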

How the data were processed

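RNA of arp6Δ cells (4 arrays) and swr1Δ cells (3 arrays) was compared with wild-type RNA on 2-colour expression arrays. The deposited values are log2 ratios of mutant over wild type that the authors had normalised and centred; the scanner, background correction and normalisation method were not given in the sources used here, and precision is limited by how many arrays there are. Probes of a gene were averaged. Each mutant was tested against 0 on its own arrays, and the difference on all 7, in limma 3.58.1 (R 4.3.3; lmFit, eBayes), for 5879 features with at least 2 arrays per mutant, with Benjamini-Hochberg adjustment over all of them at 0.05. Family members and arms were summarised by medians per array in Python 3.11.15 with numpy 2.4.6 and pandas 2.3.3, and drawn with matplotlib 3.10.9. The fits were tested on simulated data.

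Genes were named where they were among the 12 highest or 12 lowest called in a mutant with 1 sign on all its arrays, called in both, among the 10 smallest p-values of the difference, among the 2 to 4 largest arp6Δ means of a family, or on the 3 highest and 3 lowest arms; ARP6 and SWR1 check the labels. Others, such as the genes of IIIR, the markers and the genes of silencing, were named after their values were seen. The members and lists were chosen with earlier results of these data known. Alternatives were the pooled fit, pairs of arrays, array weights, quantile scaling, centring, other filters, the methods' t-test, a replicate block, leaving out arrays, and moving or removing displaced rows. Probe, promoter and protein sequences were not used here.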

Additional observations from a re-analysis of the deposited data

Results flagged for a closer look

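Among 154 sets of 4 arp6Δ values examined, 14 had 1 array past Dixon's critical value for distance from the other 3, which is set so that chance passes it in about 1 set in 20. Replicate 1 was that array for GDH3 (−5.88), YAL064W (−6.89), JEN1 (−7.80), HSP33 (−4.79) and FEX1 (1.05), and for the medians of arms IL (−2.44) and XIIL (−1.65). Replicate 2 was it for HMLALPHA1 (−3.33), YCL074W (−1.80), PAU11 (0.66) and NDI1 (−0.60), replicate 3 for GTT2 (−1.62) and for the median of arm XVR (−0.82), and replicate 4 for PAU6 (−0.56).

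For 26 end genes the response itself differed between arp6Δ and swr1Δ in limma. SNO2, YDL241W and SNZ2 were higher in arp6Δ, by 1.33, 1.32 and 1.31. Those lower were YFL067W by −2.17, ATP1 by −1.99, YPR204W by −1.86, HYR1 by −1.84, KGD4 by −1.72, MCH2 by −1.72, MAL11 by −1.72, YOL153C by −1.72, YML133C by −1.67, YCR102C by −1.63, YAL065C by −1.62, YHL049C by −1.59, NDI1 by −1.56, BIO2 by −1.54, YHL050C by −1.50, MAL31 by −1.33, YFL065C by −1.30, YEL068C by −1.27, REE1 by −1.25, YEL076C by −1.13, GTT2 by −1.09, YNR071C by −1.09 and HPF1 by −1.09. The adjusted p-values ran from 0.0205 for KGD4 to 0.0482 for MCH2. The values of YFL067W, HYR1, KGD4, YFL065C, YEL068C and YEL076C on arp6Δ replicates 1 and 2 are displaced.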

How the results depend on the processing

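The median shifts of the end genes, the number of arms below 0 in arp6Δ and the outer minus inner difference kept their direction under the alternatives run for all 3. The outer minus inner difference in arp6Δ went from −0.14 to −0.07 when the left-out symbols were removed after ranking, and without PAU, COS, YRF1 and unnamed genes it was −0.08 in arp6Δ and −0.00 in swr1Δ, where it had been 0.13. Counts of calls did not hold, and they moved over all features as well. In arp6Δ 5.36% of all features were called in the main fit, 26.8% on all 7 arrays and 43.5% on replicates 3 and 4. In swr1Δ 22.2% were called in the main fit and 0 on all 7 arrays. For the other alternatives the share of all features is not given here, so those counts say nothing particular to the end genes. In arp6Δ the count of 22 became 100 on all 7 arrays, 45 on replicates 1 and 2, 169 on replicates 3 and 4, 64 after quantile scaling, 68 by the methods' t-test without adjustment and 0 with it (70 with an unadjusted p under 0.05). Leaving out 1 array gave 0 to 3. In swr1Δ the count of 65 became 0 on all 7 arrays and 0 by the methods' t-test with Benjamini-Hochberg adjustment (62 unadjusted), and 12 to 173 without 1 array. For the difference the count of 26 became 190 with array weights, 76 after quantile scaling, and 0 to 53 without 1 array. No pairing of the replicate numbers is stated. The deviations of same-numbered arrays from the means of their mutants correlated by 0.02, 0.05 and −0.05, which cannot settle whether cultures or wild-type RNA were paired. With a replicate block the count for the difference was 0 (94 with an unadjusted p under 0.05 in limma). With displaced rows moved back the counts were 30 in arp6Δ and 28 for the difference, and with them removed 27 and 38. The causes were not tested.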
